A study of Homo sapiens with 6 samples.

Results

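The tubulin genes and the genes of proteins that bind microtubules were followed in polyA RNA of A549 cells, a human lung adenocarcinoma line, with and without a deletion of the MIR21 gene, which encodes the microRNA miR-21. The set held 39 named genes of the 58174 listed in the expression table, and all 39 were found by gene symbol. It was put together by function, with earlier results of these data known. The exceptions, MTUS1 and DCDC2, were chosen on their loss of FPKM in MIR21-KO. Their values are therefore given as a description with no test, and they are left out of every count of members that changed between the groups. Counts of sequence features are over all members. Counts over all genes include both, and the run of neighbours described below includes MTUS1. The other 37 comprised 4 alpha-tubulins, 6 beta-tubulins, 3 further tubulins and 24 microtubule-associated genes.

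The Ctrl group held 3 libraries of A549 cells labelled as control, and the MIR21-KO group 3 libraries of A549 cells labelled as MIR21 knockout, all harvested 48 h after seeding. The knockout was made by transfection of Cas9 with a pair of guide RNAs and sorting of single cells positive for both fluorescent reporters. The study calls its control cells parental and describes no such steps for them. An effect of these steps cannot be told apart from that of the deletion. How many clones stand behind the 3 MIR21-KO libraries is not given in the sources used here, and a difference particular to a clone cannot be told apart from an effect of the deletion. The study calls the samples independent, while the labels do not say whether each came from its own culture or clone. The p-values therefore measure the spread between these libraries, which may be technical.

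Microtubules are hollow polymers of alpha- and beta-tubulin dimers. They grow and shrink mainly at a plus end, are nucleated by gamma-tubulin at a minus end, and are stabilised, sequestered or cut by bound proteins. The human genome holds several tubulin genes for each class, called isotypes, which differ mostly in their last residues. Cells also hold tubulin mRNA in balance with free tubulin: TTC5 recognises the first residues of a nascent tubulin chain and, with SCAPER and the CCR4-NOT deadenylase through CNOT11, brings about the decay of that mRNA.

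The coding starts of 5 tubulins whose levels the results turn on are shown, each from 1 GENCODE 29 transcript with the first 12 coding bases in capitals. In alpha- and beta-tubulin these bases encode the recognised stretch, and TUBG1 is shown beside them without it.
TUBA1A: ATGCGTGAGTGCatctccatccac
TUBA1B: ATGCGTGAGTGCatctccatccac
TUBB4B: ATGAGGGAAATCgtgcacttgcag
TUBB2B: ATGCGTGAGATCgtgcacatccag
TUBG1: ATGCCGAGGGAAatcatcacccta
The 4 alpha-tubulin members encoded the same start, and so did the 6 beta-tubulin members with a start of their own. TUBG1, TUBD1 and TUBE1 encoded neither. The 24 bases of TUBA1A and TUBA1B shown here were identical. As the alpha-tubulins share this start, it cannot tell these genes apart, and its part in their levels was not tested.

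Depth was alike in the libraries, with 10631667 to 14345209 reads assigned to genes, and 1 read on a 1 kb gene was worth 0.0731 to 0.0930 FPKM (fragments per kilobase of gene, scaled to the size of the library). MIR21 itself was listed at 0 in all 6 libraries, and polyA libraries do not capture so short a hairpin, so that it did not check the labels. VMP1, whose transcribed region holds the hairpin, was listed at 70.7, 76.8 and 77.8 FPKM in Ctrl and at 134.6, 144.5 and 148.6 FPKM in MIR21-KO. The epithelial keratin genes KRT8 and KRT18 were abundant in every library, at 335 to 688 FPKM, KRT19 was at 82.9 to 129 FPKM, EPCAM was at 1.65 FPKM or lower, and endothelial and leukocyte markers summed to at most 0.0855 and 0.555 FPKM.

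Of the 37 members, 33 had a mean of at least 0.5 FPKM and were tested, with limma on log2(FPKM + 0.1) and a false discovery rate (FDR) under 0.01 over 16006 genes. MTUS2, DCLK1, MAP2 and MAPT were below that level. TUBA1A, STMN3 and MAPRE3 rose, and TUBA1B, TUBA1C, TUBG1 and MAPRE2 fell. These 7 of 33 were 21.2%, beside 16.0% of all genes tested. Split by direction, 3 members rose, beside a background of 7.66%, and 4 fell, beside a background of 8.38%. The median log2 change of the 33 was -0.07, and that of all genes tested was -0.02. In 19 of the 33 the 3 Ctrl and 3 MIR21-KO values did not overlap, beside 48.1% of all genes tested. At an unadjusted p under 0.05 the count was 17 of 33, beside 43.2% of all genes tested. The count of calls changed when 1 library was left out: it was 2 without Ctrl 1, Ctrl 2 or MIR21-KO 2, 3 without Ctrl 3, 7 without MIR21-KO 1 and 10 without MIR21-KO 3. Over all genes tested, 2568 calls became 895, 922, 768, 873, 2193 and 3400 in the same order. TUBA1A and STMN3 were called in every one of these 6 fits.

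**Figure D1:**
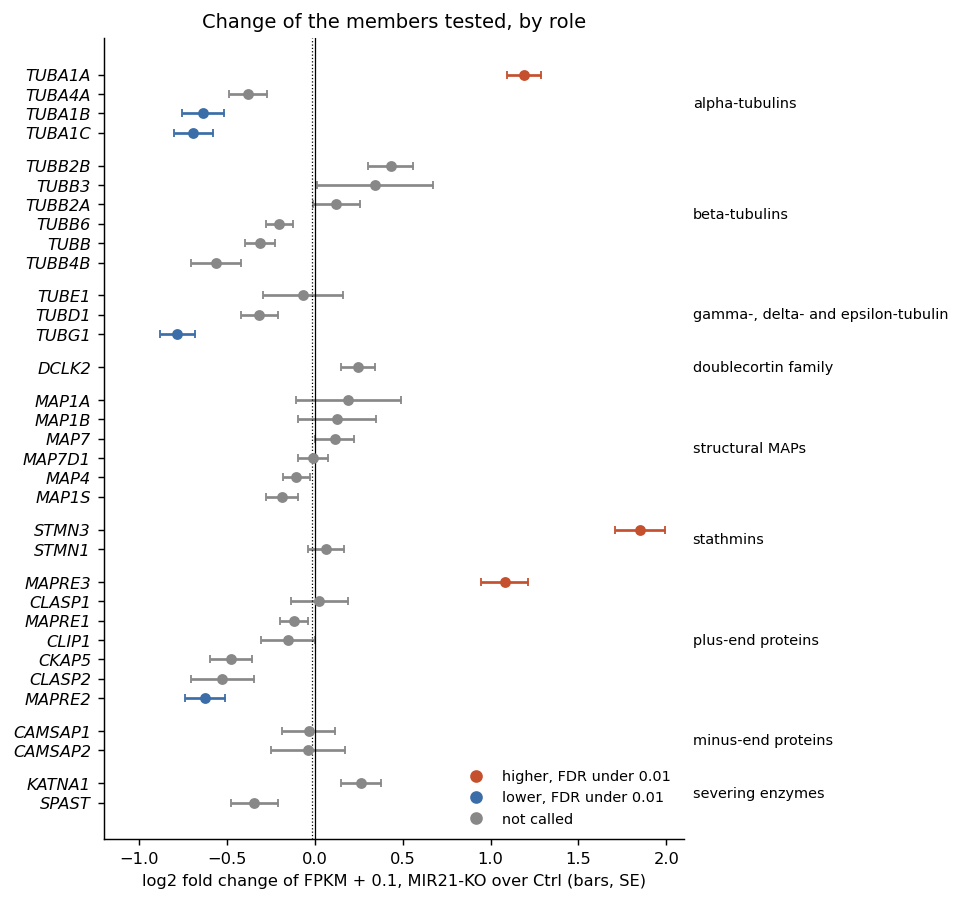
The log2 fold change (x axis) of the 33 members tested, grouped by role, with bars for the SE. STMN3, TUBA1A and MAPRE3 lie farthest to the right, at 1.85, 1.19 and 1.08, and TUBG1 farthest to the left at -0.78; the dotted line marks the median of all genes tested.

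Among the alpha-tubulins, which supply the subunit that faces the minus end, TUBA1B was by far the most abundant. It was measured at 627, 662 and 633 FPKM in Ctrl and at 462, 429 and 353 FPKM in MIR21-KO. TUBA1C stood at 196, 208 and 200.2 FPKM in Ctrl and at 141.5, 127 and 108 FPKM in MIR21-KO. In both genes every MIR21-KO library lay below every Ctrl library, and MIR21-KO 3 was the lowest. The log2 change was -0.64 ± 0.12 (SE) for TUBA1B (limma FDR 0.00869) and -0.69 ± 0.11 for TUBA1C (limma FDR 0.00499). Neither call held when any 1 of Ctrl 1, Ctrl 2, Ctrl 3 or MIR21-KO 2 was left out. The log2 changes over the alternative fits stayed at -0.52 or lower for TUBA1B and -0.59 or lower for TUBA1C. For TUBA1B, the limma FDR was 0.0383 without Ctrl 1, 0.0419 without Ctrl 2, 0.0406 without Ctrl 3 and 0.0384 without MIR21-KO 2. For TUBA1C the limma FDR was 0.0239, 0.0266, 0.0264 and 0.0279 in the same order.

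TUBA1A, the isotype best known from developing neurons, went the other way. It was measured at 56.3, 60.9 and 59.2 FPKM in Ctrl and at 145, 140.2 and 119 FPKM in MIR21-KO. The groups lay far apart, with the lowest MIR21-KO library above the highest Ctrl library. The means were 58.8 ± 2.31 and 134.8 ± 14.1 FPKM (SD, n = 3 each), and the log2 change was 1.19 ± 0.10 (limma FDR 0.000392). TUBA4A, the remaining alpha-tubulin, was at 44.1, 43.7 and 44.7 FPKM in Ctrl and at 37.8, 35.3 and 29.2 FPKM in MIR21-KO. Its groups did not overlap, but the difference missed the threshold (log2 change -0.38, limma FDR 0.0341).

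**Figure D2:**
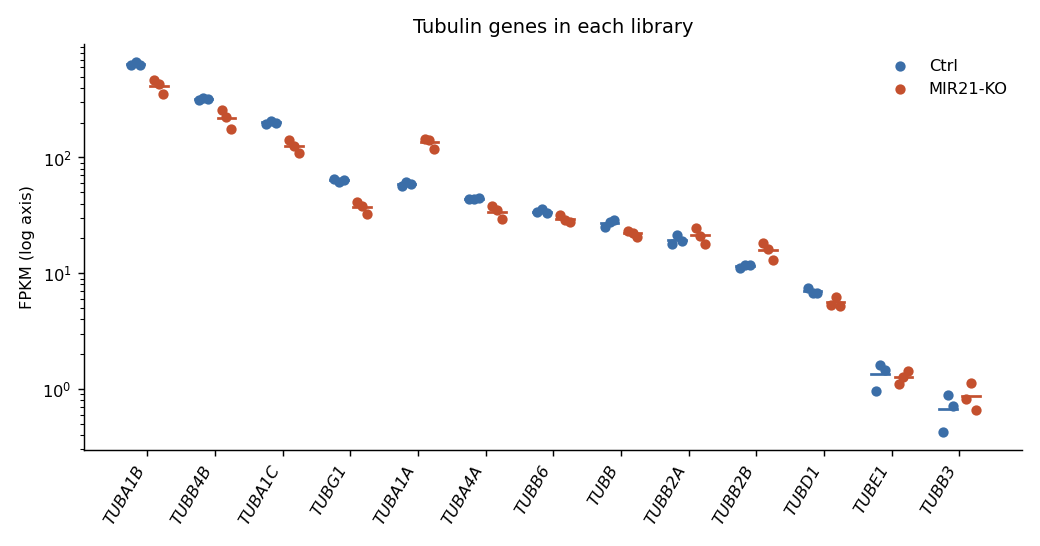
FPKM on a log axis of the 13 tubulin members in each library, in order of their Ctrl mean (points, libraries; bars, group means). TUBA1A is the tubulin whose MIR21-KO points stand well above its Ctrl points, while TUBA1B, TUBA1C and TUBG1 lie below them.

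TUBA1B, TUBA1A and TUBA1C lie within 146.8 kb on chromosome 12. TUBA1B (ENSG00000123416, chr12:49127782-49131397, minus strand) and TUBA1A (ENSG00000167552, chr12:49184796-49189324, minus strand) are 53.4 kb apart. TUBA1C (ENSG00000167553, chr12:49188736-49274603, plus strand) overlaps TUBA1A by 589 bases on the opposite strand in GENCODE 29. Whether reads were counted by strand is not given in the sources used here, so reads from the overlap may have gone to either gene. Their promoter windows, 250 bases before to 50 after the RefSeq start on GRCh38.p14, are shown because these neighbours moved in opposite directions. Capitals mark, on either strand, CCAAT (the NF-Y box), GGGCGG (the Sp1 box) and TTTGAA (a cell cycle homology region).
TUBA1A, chr12:49189031-49189330, minus strand: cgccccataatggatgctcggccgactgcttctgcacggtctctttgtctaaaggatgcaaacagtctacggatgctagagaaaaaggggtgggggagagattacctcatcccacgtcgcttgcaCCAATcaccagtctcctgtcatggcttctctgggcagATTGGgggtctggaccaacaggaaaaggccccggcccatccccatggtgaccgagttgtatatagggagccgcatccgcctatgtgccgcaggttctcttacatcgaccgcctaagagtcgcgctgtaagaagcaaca
TUBA1B, chr12:49131346-49131645, minus strand: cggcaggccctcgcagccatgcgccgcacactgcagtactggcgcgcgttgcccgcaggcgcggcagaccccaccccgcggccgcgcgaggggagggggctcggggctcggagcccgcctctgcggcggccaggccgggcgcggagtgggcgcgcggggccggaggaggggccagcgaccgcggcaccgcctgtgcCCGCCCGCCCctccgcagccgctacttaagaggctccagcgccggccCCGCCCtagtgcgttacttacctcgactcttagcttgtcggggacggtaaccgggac
TUBA1C, chr12:49264832-49265131, plus strand: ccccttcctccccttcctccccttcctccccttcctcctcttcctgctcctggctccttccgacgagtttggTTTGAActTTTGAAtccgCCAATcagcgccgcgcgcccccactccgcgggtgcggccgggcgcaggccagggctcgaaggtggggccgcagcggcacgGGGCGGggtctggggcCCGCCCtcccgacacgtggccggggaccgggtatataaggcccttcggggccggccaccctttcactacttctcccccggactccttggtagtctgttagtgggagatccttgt
The TUBA1A window held CCAAT at 2 places and neither of the other motifs. The TUBA1B window held GGGCGG at 3 places, a pair of them overlapping, and neither of the others. The TUBA1C window, 1 of 3 listed and the one nearest the principal transcript, held CCAAT at 1 place, GGGCGG at 2 and TTTGAA at 2. Over all 35116 promoter windows in the reference table, 34.61% held CCAAT, 44.95% GGGCGG and 15.16% TTTGAA. Windows were found for 36 of the 39 members. Of these 58 windows, 25 held CCAAT, 33 GGGCGG and 13 TTTGAA. Whether any of these motifs has a part in the levels of TUBA1A, TUBA1B and TUBA1C was not tested.

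The beta-tubulins, the subunit at the plus end, were led by TUBB4B. It was measured at 313, 327 and 318 FPKM in Ctrl and at 255, 224 and 177 FPKM in MIR21-KO. Every MIR21-KO library was below the Ctrl libraries, yet the change missed the threshold (log2 change -0.56 ± 0.14, limma FDR 0.0239). It passed without MIR21-KO 1 (limma FDR 0.00797) and without MIR21-KO 3 (limma FDR 0.00828), and under scaling by total reads (limma FDR 0.00782). TUBB2B stood at 11.1, 11.8 and 11.8 FPKM in Ctrl and at 18.2, 16.2 and 12.9 FPKM in MIR21-KO, with no overlap (log2 change 0.43, limma FDR 0.0437, and 0.00331 without MIR21-KO 3). TUBB was at 25.3 to 29.1 FPKM in Ctrl and 20.7 to 23.2 FPKM in MIR21-KO (log2 change -0.31, limma FDR 0.0295), and TUBB6 at 32.9 to 35.6 and 28.0 to 31.8 FPKM (log2 change -0.20, limma FDR 0.0916). TUBB2A overlapped between the groups, at 17.9 to 21.3 and 18.0 to 24.8 FPKM. TUBB3, the isotype used as a marker of neurons, was low in every library, at 0.426 to 0.882 FPKM in Ctrl and 0.661 to 1.12 FPKM in MIR21-KO. None of the 6 beta-tubulins was called at the threshold, whereas 4 of the 6 had an unadjusted limma p under 0.05, as did 43.2% of all genes tested.

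The make-up of the tubulin pool was then set out within each library, where it does not depend on how libraries are scaled. TUBA1A made up 6.10%, 6.24% and 6.31% of the summed alpha-tubulin FPKM in Ctrl and 18.5%, 19.2% and 19.5% in MIR21-KO. The share of TUBA1B was 67.8% ± 0.19 (SD, n = 3) in Ctrl and 58.5% ± 0.42 in MIR21-KO. TUBA1C held 21.3% ± 0.07 and 17.7% ± 0.32, and TUBA4A 4.67% ± 0.17 and 4.81% ± 0.03. The libraries of a group were thus much closer to each other in these shares than the groups were for TUBA1A, TUBA1B and TUBA1C. Among the beta-tubulins, TUBB4B held 77.5% ± 0.50 in Ctrl and 70.8% ± 1.77 in MIR21-KO. TUBB2B held 2.80% ± 0.05 and 5.10% ± 0.07, TUBB2A 4.68% ± 0.29 and 6.88% ± 0.20, and TUBB6 8.25% ± 0.23 and 9.70% ± 1.02. For 9 of the 10 isotypes the shares of the groups did not overlap, TUBB (6.64% ± 0.39 and 7.23% ± 0.77) being the exception. For these 9 the two-sided exact permutation p was 0.1, the smallest that 3 against 3 libraries allow (0.111 after Benjamini-Hochberg adjustment over 10 shares). The shares of a class add up to the whole, so the 10 are not separate results. Beside this count, the FPKM of 48.1% of all genes tested did not overlap between the groups.

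**Figure D3:**
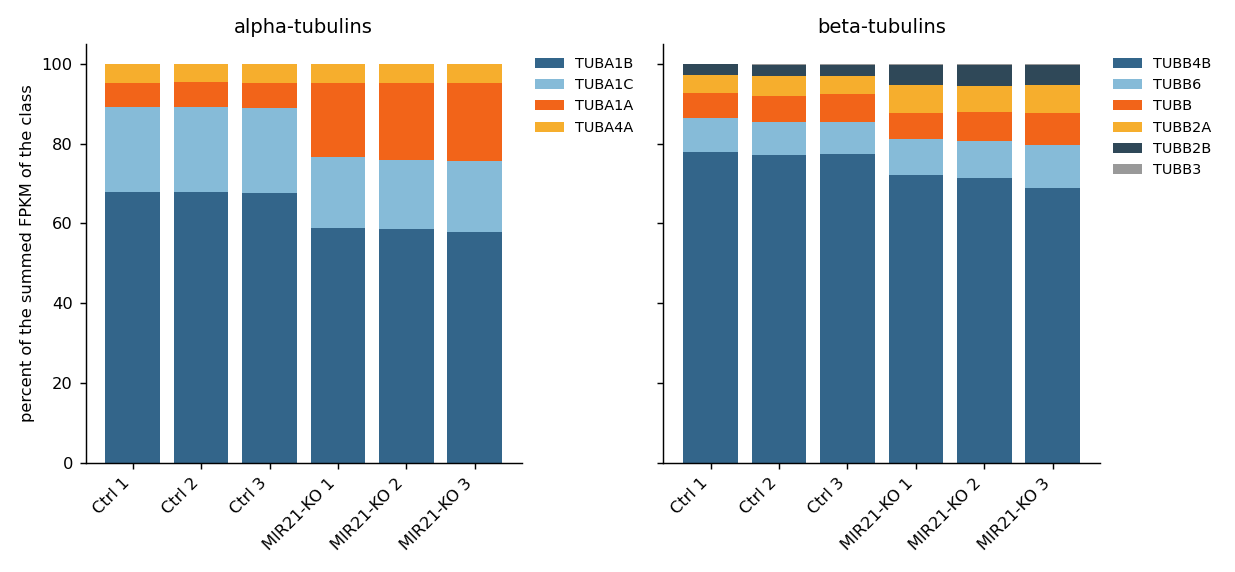
Each isotype as a percent of the summed FPKM of its class, alpha-tubulins on the left and beta-tubulins on the right, with 1 bar per library. The band of TUBA1A widens from 6.22% on average in Ctrl to 19.0% in MIR21-KO, and the bands of TUBB2A and TUBB2B widen as that of TUBB4B narrows.

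Summed over the 4 alpha-tubulins, the level was 923, 975 and 938 FPKM in Ctrl and 787, 731 and 610 FPKM in MIR21-KO. The 6 beta-tubulins summed to 402, 425 and 412 FPKM in Ctrl and to 354, 314 and 257 FPKM in MIR21-KO. In MIR21-KO the sums were 0.750 and 0.747 times the Ctrl mean, with no overlap (exact permutation p = 0.1 for each). Levels between isotypes carry a limit, because near-identical copies share sequence. Of the 100-base windows of the principal mRNA, 37.2% in TUBA1B, 18.6% in TUBA1A and 11.5% in TUBA1C also occurred in transcripts of other genes, mostly each other. The share was 56.4% in TUBB2A and 46.2% in TUBB2B, 14.95% in TUBG1, 2.86% in TUBB4B and 0% in TUBB6. For TUBB3 it was 89.0%, mostly with an annotated read-through gene. How reads with several positions were counted is not given in the sources used here. TUBB lies in the MHC region of chromosome 6, where the median listed level was low, and a TUBB pseudogene, TUBBP1, was listed at a mean of 105.7 FPKM, so the level of TUBB against its sister isotypes is uncertain. The beta-tubulin sum and shares carry the same limit. With TUBB left out of the class, TUBB4B held 83.0% ± 0.44 (SD, n = 3) in Ctrl and 76.3% ± 1.29 in MIR21-KO. TUBB2A then held 5.02% ± 0.31 and 7.42% ± 0.24, and TUBB2B 2.99% ± 0.07 and 5.50% ± 0.04.

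The tubulins outside the dimer were led by TUBG1, the gamma-tubulin of the nucleating ring. TUBG1 was measured at 64.7, 61.5 and 64.2 FPKM in Ctrl and at 41.0, 37.8 and 32.4 FPKM in MIR21-KO. No library overlapped (log2 change -0.78 ± 0.10, limma FDR 0.00203). The call was lost without Ctrl 1, Ctrl 2, Ctrl 3 or MIR21-KO 2, with a limma FDR of 0.0142, 0.0118, 0.0145 and 0.0140. Its near copy TUBG2 was at 9.47, 10.53 and 10.00 FPKM in Ctrl and at 13.24, 13.47 and 11.29 FPKM in MIR21-KO, the other direction, without passing the test (limma FDR 0.0366). TUBD1, the delta-tubulin of centriole triplets, was at 6.70 to 7.43 FPKM in Ctrl and at 5.16 to 6.26 FPKM in MIR21-KO (log2 change -0.32, limma FDR 0.0592). It lies 17227 bases from VMP1 on chromosome 17, on the opposite strand, at chr17:59859482-59892945, and so beside the edited locus. TUBE1, the epsilon-tubulin, overlapped between the groups at 0.969 to 1.61 FPKM over the 6 libraries.

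MTUS1 encodes a scaffold that binds microtubules and the plus-end protein EB1. It was at 13.4, 11.8 and 12.7 FPKM in Ctrl and at 0.0489, 0.0408 and 0.00642 FPKM in MIR21-KO. The MIR21-KO values stand for 8, 6 and 1 reads. Its relative MTUS2 was not detectable as expressed at this depth, with at most 2 reads in a library. MTUS1 was not alone on its chromosome. The rows on both sides of it, SLC7A2, PDGFRL, RP11.806O11.1, FGL1 and RP11.156K13.2, were lower as well. SLC7A2, a cationic amino acid transporter, was at 1.32 to 1.71 FPKM in Ctrl and at 0.0620 to 0.0975 FPKM in MIR21-KO. PDGFRL was at 7.71 to 8.38 FPKM in Ctrl and at 0.576 to 0.945 FPKM in MIR21-KO, and FGL1 at 1.52 to 1.93 and 0 to 0.111 FPKM. RP11.806O11.1 and RP11.156K13.2 were listed at 0 in all 3 MIR21-KO libraries. Beyond them the levels were nearer: VPS37A was at 5.92 to 6.38 FPKM in Ctrl and 4.27 to 5.98 FPKM in MIR21-KO, and PCM1 at 9.35 to 10.8 and 5.54 to 7.17 FPKM. CNOT7 was at 11.4 to 11.6 and 7.32 to 9.35 FPKM, and ASAH1 at 7.04 to 7.91 and 7.32 to 7.92 FPKM. The 6 lower genes form a run of 413.3 kb, chr8:17497088-17910365 on hg38. It was the longest of 4 runs of 3 or more neighbours each at least 4-fold lower among 15625 genes with a Ctrl mean of at least 0.5 FPKM, of which 303 were lower by that much. This run was searched for after the values had been seen, and whether the DNA of this region is intact in these cells was not tested.

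**Figure D4:**
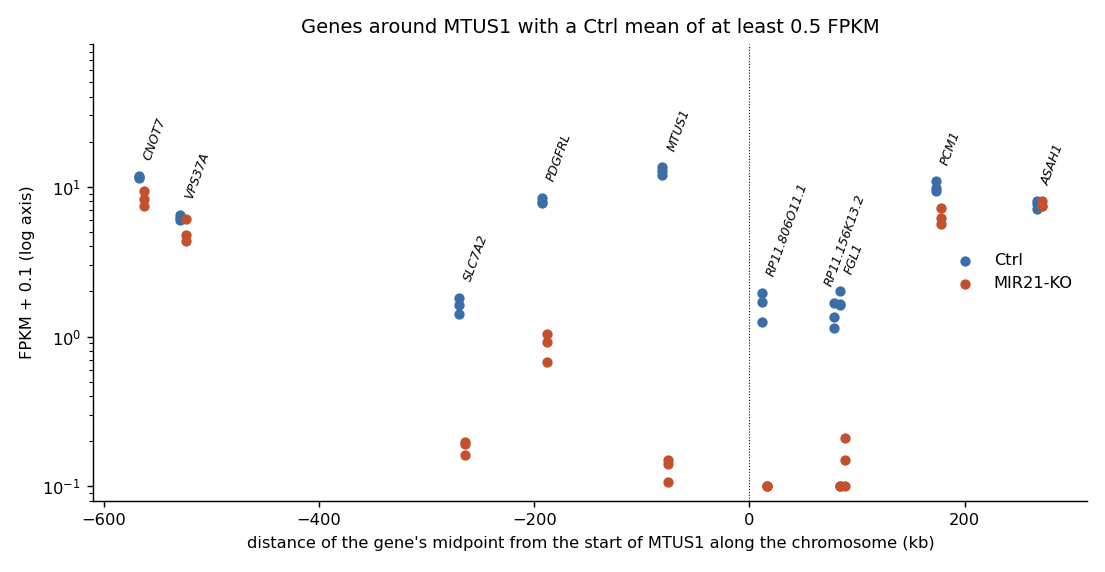
FPKM + 0.1 on a log axis of the genes around MTUS1 against the distance of each gene's midpoint from the start of MTUS1, with 1 point per library. From SLC7A2 to FGL1 the MIR21-KO points lie near the floor or about an order of magnitude down, while CNOT7, VPS37A, PCM1 and ASAH1 at the sides lie much nearer to their Ctrl points.

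DCDC2 encodes a doublecortin-domain protein of microtubules and the primary cilium. It was at 7.25, 6.72 and 7.55 FPKM in Ctrl and at 0.103, 0.0817 and 0.0926 FPKM in MIR21-KO, which stand for 5 to 7 reads. Around DCDC2 on chromosome 6 no such run was seen. KAAG1, which overlaps its start on the other strand, was at 0.740 to 1.36 FPKM in Ctrl and at 0.0531, 0 and 0 FPKM in MIR21-KO. The next genes held their levels more closely: MRS2 was at 7.70 to 8.01 and 5.08 to 6.03 FPKM, GPLD1 at 0.567 to 0.767 and 0.597 to 0.737 FPKM, and ALDH5A1 at 4.66 to 5.40 and 4.24 to 4.80 FPKM. On the other side the nearest expressed genes were distant: SOX4, 2573137 bases away, was at 21.7 to 22.7 and 37.0 to 45.3 FPKM, CDKAL1 at 2.59 to 3.05 and 1.99 to 2.56 FPKM, and E2F3 at 6.70 to 8.21 and 6.01 to 8.46 FPKM.

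The other doublecortin-family genes are kinases whose doublecortin domains bind microtubules. DCLK1 was nearly silent in Ctrl, at 0.0601, 0.0453 and 0.0661 FPKM, and was at 0.771, 0.972 and 0.896 FPKM in MIR21-KO, 15.4 times the Ctrl mean. Its mean over all libraries was below the 0.5 FPKM needed for the test. With no filter on low values the log2 change on the scale of FPKM + 0.1 was 2.64 (limma FDR 0.00185). DCLK2 was at 4.28 to 4.66 and 4.99 to 5.62 FPKM, without overlap and without passing the test (log2 change 0.25, limma FDR 0.0927). Of 7 further doublecortin-family genes none reached 0.5 FPKM, and DCX, DCLK3 and DCDC2C had no read. DCDC1 was lower in MIR21-KO without overlap, at 0.360 to 0.394 FPKM in Ctrl and 0.0112 to 0.0869 FPKM in MIR21-KO, and like DCLK1 it was below the level for the test.

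Structural microtubule-associated proteins bind along the lattice. None of the 6 tested passed the threshold. MAP4, the main one outside neurons, was at 17.2 to 18.6 FPKM in Ctrl and 15.5 to 17.5 FPKM in MIR21-KO. MAP7, which recruits kinesin-1, was at 14.2 to 16.1 and 14.4 to 18.7 FPKM, and its relative MAP7D1 at 35.2 to 36.1 and 31.8 to 38.3 FPKM. MAP7D1 had a log2 change of -0.01, whose sign turned under median-ratio scaling. MAP1B ranged widely within MIR21-KO, at 15.1, 19.7 and 28.0 FPKM, around Ctrl values of 21.4, 16.9 and 17.5 FPKM. MAP1S and MAP1A, of the same family as MAP1B, had log2 changes of -0.19 and 0.19 (limma FDR 0.163 and 0.663).

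The dendritic MAP2 and the axonal MAPT (tau) are both hallmarks of neurons. MAP2 was at 0.0748, 0.105 and 0.127 FPKM in Ctrl and at 0.444, 0.572 and 0.754 FPKM in MIR21-KO, 5.79 times the Ctrl mean. The groups did not overlap, and with no filter on low values MAP2 missed the threshold (limma FDR 0.0127). MAPT stayed at 0.0438 to 0.0775 FPKM over all 6 libraries, or 8 to 15 reads.

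Stathmins bind free tubulin dimers and promote shrinkage. STMN3, a stathmin best known from neurons, had the largest change of the members tested. It was measured at 4.97, 4.94 and 5.57 FPKM in Ctrl and at 20.9, 21.0 and 15.2 FPKM in MIR21-KO. The lowest MIR21-KO library was far above the highest Ctrl library (log2 change 1.85 ± 0.14, limma FDR 0.000304). Over the 20 alternative fits the change lay between 1.69 and 2.003, and STMN3 was called in each. STMN1, the widely expressed member linked to proliferation, was at 39.8 to 43.0 and 38.3 to 48.5 FPKM and overlapped between the groups (log2 change 0.07, limma FDR 0.660). STMN2 and STMN4 had no read in any library.

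Plus-end proteins ride on or drive growing tips. The end-binding proteins EB1, EB2 and EB3, encoded by MAPRE1, MAPRE2 and MAPRE3, recognise the tip and recruit the others. MAPRE1 was the most abundant, at 119.6 to 127 FPKM in Ctrl and 107 to 121 FPKM in MIR21-KO, and overlapped between the groups. MAPRE3 was at 4.95, 4.65 and 5.52 FPKM in Ctrl and at 12.5, 10.8 and 9.16 FPKM in MIR21-KO (log2 change 1.08 ± 0.13, limma FDR 0.00181). MAPRE2 was at 5.26, 5.48 and 4.93 FPKM in Ctrl and at 3.27, 3.04 and 3.78 FPKM in MIR21-KO (log2 change -0.63 ± 0.11, limma FDR 0.00744). The levels of MAPRE2 and MAPRE3, close in Ctrl, thus stood apart in every MIR21-KO library. The MAPRE3 call was lost without Ctrl 1, Ctrl 2 or MIR21-KO 2 (limma FDR 0.0119, 0.0112 and 0.0136). The MAPRE2 call was held only without MIR21-KO 3 among the fits that left out a library, the limma FDR being 0.0346, 0.0353 and 0.0272 without Ctrl 1, 2 and 3, and 0.0172 and 0.0359 without MIR21-KO 1 and 2.

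CKAP5, the polymerase that adds tubulin at the tip, was at 35.1, 28.2 and 29.2 FPKM in Ctrl and at 19.5, 22.5 and 24.5 FPKM in MIR21-KO, with no overlap (log2 change -0.48, limma FDR 0.0254). CLASP2, a rescue factor, was at 4.004 to 4.76 and 2.49 to 3.82 FPKM, likewise without overlap (limma FDR 0.0648, and 0.00628 without MIR21-KO 3). Its paralog CLASP1 was at 4.16 to 4.86 and 3.73 to 5.58 FPKM (log2 change 0.03, whose sign turned under scaling by total reads). CLIP1, which encodes CLIP-170, was at 5.19 to 5.49 and 3.77 to 5.61 FPKM. The minus-end binders CAMSAP1 and CAMSAP2 were at 6.45 to 9.37 and 6.35 to 11.4 FPKM over all libraries, with log2 changes of -0.03 and -0.04. Of the severing enzymes, KATNA1, the katanin catalytic subunit, was at 4.59 to 5.56 and 5.60 to 6.58 FPKM, and SPAST (spastin) at 6.64 to 7.76 and 4.76 to 6.52 FPKM. Neither passed the test (limma FDR 0.121 and 0.0954), although the groups did not overlap in either gene.

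The members spread more among the MIR21-KO libraries than among the Ctrl libraries. The SD of log2(FPKM + 0.1) was larger in MIR21-KO in 27 of the 33 members, with medians of 0.187 and 0.0814, and in 69.5% of all genes tested. The spread had a pattern. Of the 13 tubulins, 10 were highest in MIR21-KO 1 and lowest in MIR21-KO 3, whereas 12 of the 20 other members were lowest in MIR21-KO 1 and highest in MIR21-KO 3. Over all genes tested these shares were 32.0% and 28.5%. Across the 33 members, the log2 difference between MIR21-KO 3 and MIR21-KO 1 went with the logarithm of the gene length, with Pearson's r 0.757 and Spearman's rho 0.768. Over the 16006 genes tested r was 0.106 and rho 0.308. These are correlations across genes of the same pair of libraries, and genes are not independent replicates. When trends on length and GC content were removed from each library, 13 members were called, the 7 above and CKAP5, CLASP2, TUBA4A, TUBB, TUBB2B and TUBB4B. The count over all genes rose as well, from 2568 to 3958.

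**Figure D5:**
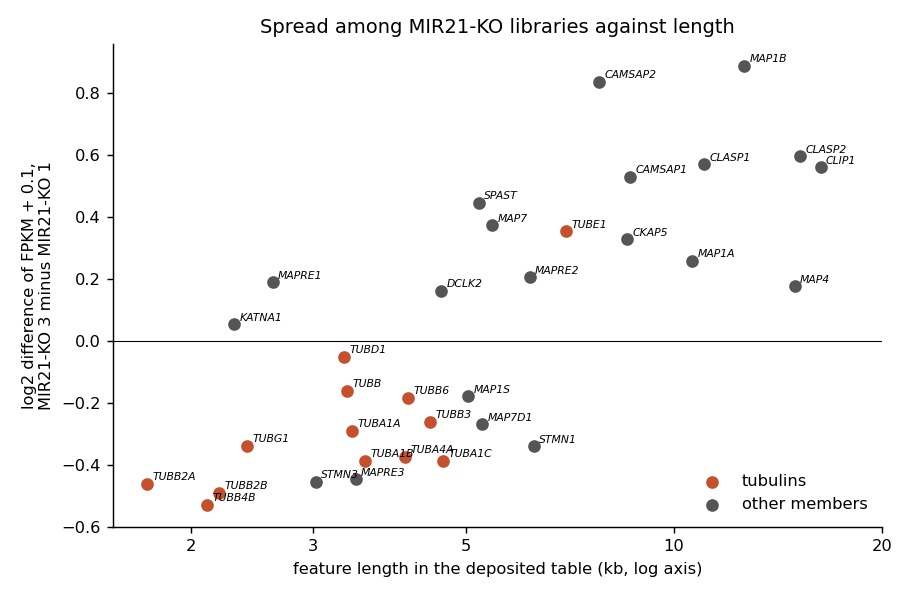
The log2 difference of FPKM + 0.1 between MIR21-KO 3 and MIR21-KO 1 (y axis) against the length of the gene in the deposited table (x axis, log scale) for the 33 members tested. The short tubulin genes sit below 0 and the long genes such as CLASP2, CLIP1 and MAP1B above it, with r 0.757.

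The deleted microRNA pairs with its targets through bases 2 to 8, the seed, shown in capitals in the mature sequence (RefSeq, chr17:59841273-59841294, GRCh38.p14, plus strand) with the site in TUBA4A, whose capitals mark the bases that match the seed.
hsa-miR-21-5p: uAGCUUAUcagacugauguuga
TUBA4A 3'UTR: catggagccacgtcATAAGCTtg
The longest annotated 3'UTR of each of the 39 members was searched. TUBA4A alone held a match to the full seed, at base 501 of 641, and no member held that match followed by an A. Among 11641 tested protein-coding genes with a 3'UTR, 9.89% held such a match of either kind. Counting weaker matches to 6 bases of the seed, as in DCDC2, DCLK1, MAPRE1 and SPAST, a match of any kind was found in 13 of 39 members (33.3%) and in 27.9% of the tested genes. TUBA1A, STMN3 and MAPRE3, the members that rose, held none. TUBA4A had a lower mean in MIR21-KO and was not called (limma FDR 0.0341). Only 1 annotated 3'UTR per gene was searched, and whether miR-21-5p acts on any member was not tested. For let-7, another microRNA family of the study, full seed matches were found in CLASP2, TUBB and MTUS1. These were 3 of 39 members (7.69%), beside 11.1% of the tested genes.

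The genes that serve tubulin were described by lists of further pathway genes. Of 132 genes, 111 were tested, of which 6 rose and 23 fell (26.1% called, beside 16.0% of all genes tested, and for each direction beside 7.66% and 8.38%), with a median log2 change of -0.13. The 6 include MAP6, which passed the filter on low values only through MIR21-KO. The tubulin folding list held the CCT chaperonin, prefoldin and tubulin cofactors, and in it 8 of 20 genes fell and none rose, with a median log2 change of -0.34. TCP1, the first CCT subunit, was at 69.4, 67.2 and 65.7 FPKM in Ctrl and at 38.2, 38.9 and 38.1 FPKM in MIR21-KO (log2 change -0.81, limma FDR 0.000339). CCT5, CCT8 and CCT6A fell by 0.73, 0.73 and 0.66 on the log2 scale. The count of 8 was 4 without any 1 Ctrl library and 2 without MIR21-KO 2, where CCT5 and CCT6A missed the threshold narrowly (limma FDR 0.010115 and 0.010045). The autoregulation genes TTC5, SCAPER and CNOT11 were not called, with log2 changes of -0.05, 0.19 and -0.26 (limma FDR 0.849, 0.592 and 0.0221).

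Of the genes that modify tubulin, 2 of 16 rose and 3 fell. SIRT2, a tubulin deacetylase, was at 5.57 ± 0.18 and 14.2 ± 2.45 FPKM (SD, n = 3 each, log2 change 1.32), and VASH1, a tubulin carboxypeptidase that removes the last tyrosine, had a log2 change of 0.82. AGTPBP1, a deglutamylase, and TTLL12, of the tyrosine ligase-like family, fell by 1.05 and 0.82. Among 19 nucleation genes, HAUS6 of the augmin complex and MZT1 of the gamma-tubulin complex fell by 0.96 and 0.68, and no other was called. FIGNL1 was the 1 severing gene of 6 that fell (log2 change -0.77), and DYNC1LI1 the 1 dynein or dynactin gene of 22 (log2 change -0.51). Of 23 further microtubule binders 4 rose and 7 fell. The shares called were 31.25% of the modification genes, 10.5% of the nucleation genes and 16.7% of the severing genes. They were 4.55% of the dynein and dynactin genes and 47.8% of these binders. Beside them, 16.0% of all genes tested were called, 7.66% higher and 8.38% lower. MAP6, which gives microtubules their cold resistance, was at 0.309 ± 0.050 FPKM in Ctrl and at 1.54 ± 0.13 FPKM in MIR21-KO (log2 change 2.003) and passed the filter on low values only through MIR21-KO, while TPPP3, TPPP and TACC1 fell by 1.41, 1.18 and 1.08. Of the other tubulins, TUBB4A was at 5.37, 6.98 and 5.80 FPKM in Ctrl and at 2.48, 2.66 and 2.16 FPKM in MIR21-KO (log2 change -1.28, limma FDR 0.00111). Many of these calls were lost when 1 library was left out. DYNC1LI1, TACC1, FIGNL1 and TTLL12 were not called without any 1 of Ctrl 1, Ctrl 2, Ctrl 3 or MIR21-KO 2 (limma FDR 0.0144 to 0.0281), TPPP3, MZT1 and VASH1 in addition without MIR21-KO 1 (limma FDR 0.0107 to 0.0398), TPPP without any 1 of the 6 (limma FDR 0.0148 to 0.0508) and MAP6 without MIR21-KO 2 (limma FDR 0.0143). Over all these lists, without the proliferation genes below, the 29 calls became 6 to 40 when 1 library was left out. Over all genes tested, 2568 calls became 768 to 3400 in the same fits.

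Markers of dividing cells were lower in MIR21-KO. Of 10 proliferation genes 7 fell, beside 8.38% of all genes tested. All 10 had negative log2 changes with a median of -0.67, and AURKA, MCM2, CCNB1 and PLK1 fell by 1.16, 1.13, 1.13 and 1.05. Their summed level was 850 to 876 FPKM in Ctrl and 572 to 581 FPKM in MIR21-KO. Their part in the lower TUBA1B, TUBA1C and TUBG1 was not tested. Beside the higher TUBA1A, STMN3, MAPRE3, MAP2 and DCLK1, 2 of 6 neuronal markers passed the filter on low values and rose, NEFL passing it only through the MIR21-KO libraries: SNAP25 was at 19.1 ± 1.136 and 37.6 ± 0.51 FPKM, and NEFL at 0.419 ± 0.123 and 2.31 ± 0.05 FPKM. The summed level of the 6 was 19.0 to 21.2 FPKM in Ctrl and 39.7 to 40.7 FPKM in MIR21-KO, nearly all of it SNAP25. The defining neuronal gene RBFOX3 was lower in MIR21-KO, at 0.0625 to 0.0966 FPKM against 0.459 to 0.556 FPKM, and was not tested, as its mean over all libraries was under 0.5 FPKM. SYN1, also untested, was higher in MIR21-KO, at 0.0243 to 0.0617 FPKM in Ctrl and 0.173 to 0.235 FPKM in MIR21-KO. ELAVL4 and NEFM were at or near 0 throughout. Other members and list genes did not rise: TUBB3 and MAP1B were not called, and MAPT overlapped between the groups. TUBB4A and TPPP fell (log2 change -1.28 and -1.18), and DCX, STMN2 and STMN4 had no read. All samples are of the cultured A549 line, and what lies behind the differences in these neuronal genes was not tested. CDH1, an epithelial cadherin, fell (log2 change -1.48), while 4 other epithelial markers were not called. Neither of 2 tested fibroblast markers and not the 1 tested ciliated cell marker was called. Below the level for the test, the fibroblast genes COL3A1 (0.112 ± 0.070 and 0.589 ± 0.047 FPKM) and PDGFRB (0.0235 ± 0.0143 and 0.116 ± 0.041 FPKM) were higher in MIR21-KO and the ciliated cell gene FOXJ1 (0.401 and 0.0855 FPKM) was lower, each without overlap.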

How the data were processed

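Strand-specific polyA libraries of 3 Ctrl and 3 MIR21-KO samples were analysed from the FPKM table deposited by the authors. Per the submitters' processing notes, reads were handled with cutadapt 1.14, HISAT2 2.1.0, SAMtools 1.5, featureCounts 1.5.3 and edgeR 3.18.1 on hg38. The table also holds fold changes, p-values and FDRs of the authors' own comparison, which were not used. FPKM steps gave whole reads for 100.0% of values (tolerance 0.01), so total reads per library could be recovered.

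Values were taken as log2(FPKM + 0.1), a mean of 0.5 FPKM or more was required, and MIR21-KO was tested against Ctrl with limma 3.58.1 in R 4.3.3 (eBayes with trend and robust fitting, two-sided, Benjamini-Hochberg FDR under 0.01), after the script had been tested on simulated data. A fold change on this scale understates the change of low genes. No 2 libraries agreed within sampling noise (chi-square per degree of freedom of at least 2.69). Sums and shares were compared by exact permutation tests. Positions and 3'UTRs came from GENCODE 29, promoters and microRNAs from RefSeq. The members, lists and tests were chosen with earlier results of these data known. All members are named, and of each list at most 4 called genes without overlap, largest change first. Alternatives changed pseudocount, filter, scaling, model, threshold, covariates and libraries, and voom was run on the recovered reads.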

Additional observations from a re-analysis of the deposited data

How the results depend on the processing

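TUBA1A and STMN3 were called under all 20 alternatives. The count of members called was 7, of which 3 rose and 4 fell. It was 4 (1 lower) without trend and robust fitting, 12 (8 lower) at an FDR under 0.05 and 13 (9 lower) with length and GC trends removed. With no filter on low values 2 fell. Leaving out 1 library gave 2 to 10 calls, 2 to 4 higher and 0 to 6 lower, and over all genes 768 to 3400, beside 2568. Over all genes the count was 5114 at an FDR under 0.05, 3958 with length and GC trends removed and 651 with the replicate block. Calls over the lists numbered 19 with no filter, 48 at an FDR under 0.05, 48 with length and GC trends removed and 16 when the block was added, 3 with the replicate block alone (1 in the tubulin folding list, beside 8 without the block), and 6 to 40 when 1 library was left out. With the replicate number as a block, 2 members were called (0 lower). The numbers do not pair the libraries: same-numbered deviations correlated at -0.171, -0.018 and -0.017. The cause of these moves was not tested. No library order or batch is given in the labels.

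Small changes that were not called turned sign. With length and GC trends removed, with or without the block, the log2 changes were -0.013 for TUBB2A, 0.1207 for TUBE1 and 0.1169 for CAMSAP2. MAP7D1 was at 0.0104 under median-ratio scaling and CLASP1 at -0.0093 under scaling by total reads. Over the fits without 1 library, log2 changes were -0.2744 to 0.0661 for TUBE1, -0.1038 to 0.34 for MAP1B, -0.0681 to 0.0667 for MAP7D1, -0.0068 to 0.1635 for STMN1, -0.1249 to 0.1602 for CLASP1, -0.2616 to 0.0185 for CLIP1, -0.1735 to 0.0917 for CAMSAP1 and -0.257 to 0.1612 for CAMSAP2. With 3 libraries a group, exact permutation tests of sums and shares cannot go below 0.1, and MTUS2, MAPT, DCLK1 and MAP2 are limited by their few reads.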

Other observations

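TUBB had the highest mean FPKM of the protein-coding genes in the MHC region around it. Of 93 protein-coding genes with a read between 29 and 33 Mb of chromosome 6, the median was 0.458 FPKM, against 2.60 FPKM for 726 genes on the rest of that chromosome and 3.48 FPKM for 16149 genes on all chromosomes. In that window 3.23% of genes exceeded 20 FPKM, against 13.8% of all. Of 39 tubulin pseudogenes listed, 9 had a read and 4 reached 0.5 FPKM on average. Together they took 13449 reads over the 6 libraries, against 301753 for the alpha- and beta-tubulin members, with TUBBP1 the highest.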
